A study of Mus musculus with 6 samples.

Results

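The genes described here are 9 genes of heme and iron handling in CD4+CD8+ double-positive thymocytes: Hmox1, Hmox2, Slc40a1, Fth1, Ftl1, Tfrc, Slc11a2, Ireb2 and Aco1. They are 9 of the 29626 genes in the deposited count table, found there by symbol. They were selected on 2 measured differences between the genotypes in these same libraries, fewer Hmox1 reads and the appearance of Slc40a1 reads in the KANSL1-deficient cells. The genotype difference of all 9 genes is therefore given as a description and is not used as a test. RNA was sequenced from double-positive thymocytes sorted by flow cytometry from mice of 8 weeks, with 3 mice per group. Both groups carry the floxed Kansl1 alleles (Kansl1fl/fl). The control mice are littermates without Cre, although their genotype label reads WT. The KANSL1-deficient mice (Kansl1fl/fl CD4-Cre) also carry Cre under Cd4 control, which acts in thymocytes and in the T cells that arise from them. Since the controls lack Cre, what Cre does by its own presence and what Kansl1 loss does cannot be told apart. The sources used here name no strain background or sex. KANSL1 belongs to the NSL complex together with the histone acetyltransferase KAT8.

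Cells take up iron bound to transferrin through the transferrin receptor (Tfrc), carry it out of endosomes through the transporter DMT1 (Slc11a2), store it in a shell built of ferritin heavy and light chains (Fth1, Ftl1) and release it through ferroportin (Slc40a1), the only known cellular iron exporter. Heme oxygenases (Hmox1, inducible, and Hmox2, constitutive) open the heme ring and set its iron free, together with carbon monoxide and biliverdin. The iron regulatory proteins IRP1 (Aco1) and IRP2 (Ireb2) bind a short RNA hairpin, the iron-responsive element, when iron is scarce. Binding near the start of a transcript blocks its translation, as in the ferritins and ferroportin, while binding in the 3′ UTR protects the transferrin receptor transcript from decay. With iron at hand, IRP1 takes up an iron-sulfur cluster and works as the cytosolic aconitase, and IRP2 is degraded. Thymocytes depend on Tfrc for their development.

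The hairpins are shown because a sequence match was found in 4 of the 9 genes, and the products of 2 others bind such hairpins. They were read from the GENCODE M21 transcripts (build GRCm38, whereas the gene positions from the deposited table are GRCm39). The search ran on the transcript strand and took a C, then 5 bases of any kind, then CAGTG and any base but G, 5 of 5 pairs in the upper stem and at least 4 of 5 in the lower stem, counting G-T pairs. Each site is 27 bases long and the 6 capitals mark the loop. A match occurred in 36 of 58797 protein-coding transcripts (0.0612%) and in 24 of 21901 genes (0.11%). Matches in the 5′ UTR were found in Slc40a1 (chr1:45925466-45925492, minus strand), Fth1 (chr19:9982733-9982759, plus strand) and Ftl1 (chr7:45459780-45459806, minus strand):
Slc40a1: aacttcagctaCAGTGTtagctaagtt
Fth1: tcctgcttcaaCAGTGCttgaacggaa
Ftl1: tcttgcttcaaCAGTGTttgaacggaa
Tfrc held 4 matches in its 3′ UTR, at chr16:32631220-32631246, chr16:32631599-32631625, chr16:32631664-32631690 and chr16:32631711-32631737, all on the plus strand:
Tfrc site 1: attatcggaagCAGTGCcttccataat
Tfrc site 2: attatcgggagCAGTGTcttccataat
Tfrc site 3: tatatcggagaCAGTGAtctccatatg
Tfrc site 4: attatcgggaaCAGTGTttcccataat
The sites of the 2 ferritin genes read almost the same, and all 4 Tfrc sites hold tatcgg in the first arm of the stem. For Hmox1, Hmox2, Slc11a2, Aco1 and Ireb2 the search found no such letters with these pairs, which says nothing on whether a regulatory protein binds them. Read counts measure the RNA and not its translation, so any action through a 5′ site is outside these data.

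The libraries held between 19361968 and 22459830 counts. Levels below are CPM, read counts relative to the size of the library, scaled by TMM factors, and FPKM, which is also per length, is used to compare one gene with another. Kansl1 itself was read at 214, 189 and 230 CPM in controls 1 to 3, against 146, 168 and 188 CPM after its deletion (log2 fold change -0.33 ± 0.14, SE, not past the threshold given below). The groups did not overlap, but the counts cover the whole gene, deleted part or not, so they check the labels only weakly. The defining markers of the sorted cells were abundant, with the 11 listed double-positive genes together at 14389 to 14995 CPM in control and 17092 to 18857 CPM in KANSL1-deficient libraries. They also differed between the groups: all 11 had positive log2 fold changes, with a median of 0.29 against -0.02 over all tested genes. Of the 11, 3 were higher past the threshold given next, beside 3.85% of all tested genes. Of 15353 tested genes, 1038 (6.76%) were past the threshold, an adjusted p under 0.05 in edgeR's quasi-likelihood test with Benjamini-Hochberg adjustment over all tested genes, 591 of them higher (3.85%) and 447 lower (2.91%). TMM scaling placed the median of all tested genes 0.15 higher on the log2 scale than library totals did, and 56.9% of the genes past the threshold were higher with TMM against 27.7% with library totals. Directions below are relative to the TMM scale.

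Hmox1 was lower in the KANSL1-deficient cells and Hmox2 was higher in each of them than in any control. Hmox1 (ENSMUSG00000005413, GRCm39 chr8:75820249-75827217), the inducible heme oxygenase, was read at 24.4, 18.6 and 19.7 CPM in control replicates 1 to 3 and at 9.99, 9.76 and 5.81 CPM in KANSL1-deficient replicates 1 to 3. Every KANSL1-deficient library lay below every control library, and replicate 3 was the lowest of all. Control libraries averaged 20.9 ± 3.08 CPM and KANSL1-deficient libraries 8.52 ± 2.35 CPM (SD, n = 3 each), a log2 fold change of -1.30 ± 0.26 (SE). With any 1 library left out it lay between -1.42 and -1.08, and without KANSL1-deficient replicate 2 it was no longer past the threshold. Hmox2 (ENSMUSG00000004070, chr16:4544225-4584606), the constitutive enzyme, was read at 43.4, 41.9 and 52.1 CPM in control and at 68.2, 63.7 and 65.1 CPM in KANSL1-deficient libraries. The groups did not overlap, and the KANSL1-deficient libraries were close together. The log2 fold change was 0.52 ± 0.15 (SE), short of the threshold with edgeR but past it with DESeq2, and also when edgeR was given only genes that reach 5 CPM in 3 libraries. Hmox2 shares its locus with Cdip1 on the other strand and with Gm15859, and no source used here says if counting used the strand, so reads of these genes cannot be fully separated. Cdip1 had a log2 fold change of 0.15 ± 0.15 and Gm15859 of 0.28 ± 0.41 (SE), neither past the threshold.

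**Figure D1:**
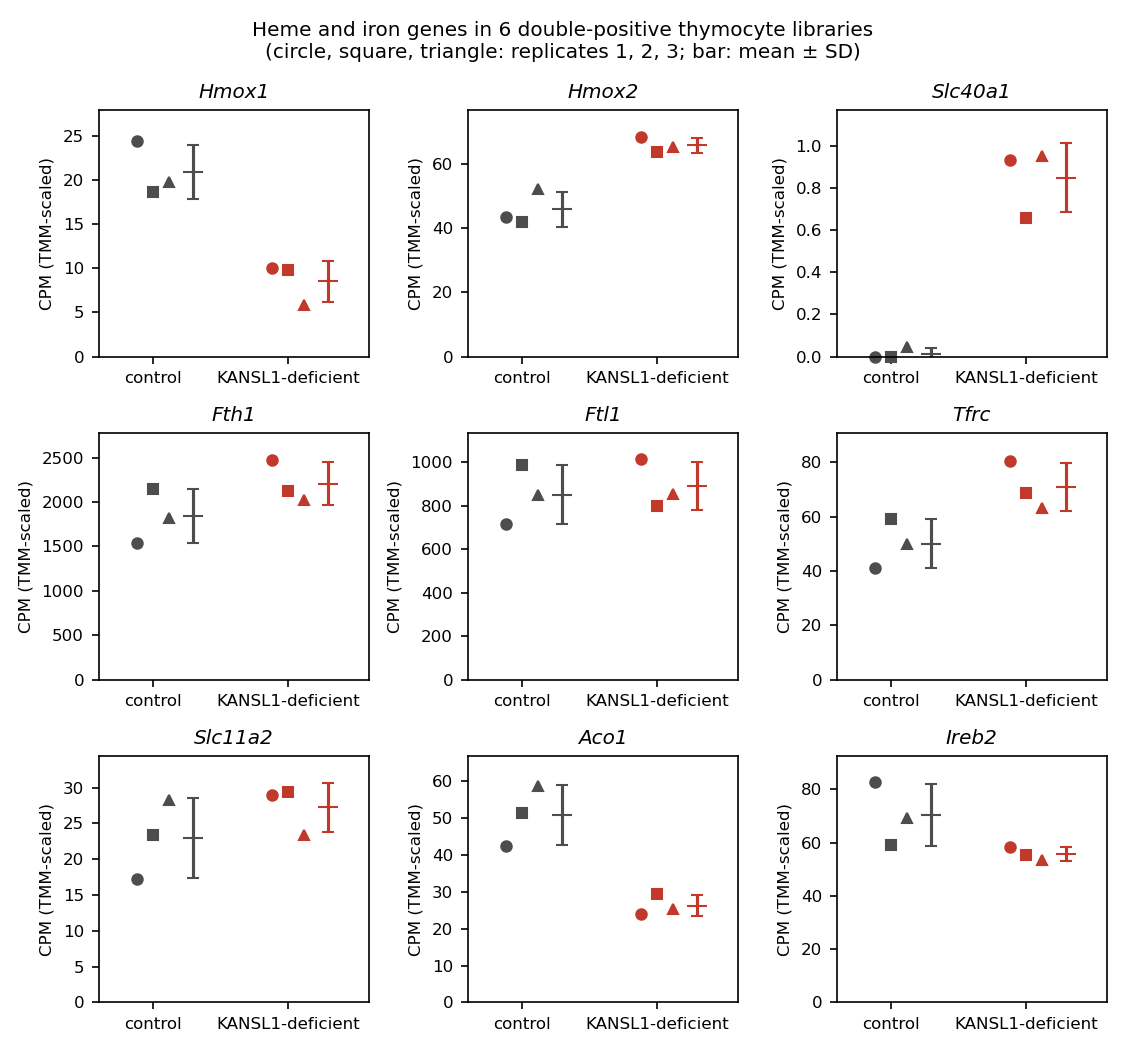
TMM-scaled CPM of the 9 genes (vertical axes, each from 0) in the 3 control and 3 KANSL1-deficient libraries, with each library as a point and the mean ± SD beside it. Hmox1, Aco1 and Ireb2 lie lower and Hmox2, Slc40a1 and Tfrc higher in every KANSL1-deficient library, whereas Fth1, Ftl1 and Slc11a2 overlap between the groups.

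Slc40a1 (ENSMUSG00000025993, chr1:45947228-45965683), the iron exporter ferroportin, had 0, 0 and 1 reads in the control libraries and 19, 14 and 19 reads in the KANSL1-deficient libraries. All KANSL1-deficient libraries thus held reads, while only control replicate 3 held any. The scaled reads differed by a ratio of 55.9, and counting error alone gave it a 95% interval from 9.60 to 2250 (Clopper-Pearson, from 1 against 52 reads). Even so the transcript was scarce: 0.845 CPM in the KANSL1-deficient libraries (95% Poisson interval 0.631 to 1.11, counting error only), or 0.0966, 0.0693 and 0.102 FPKM in the 3 libraries. The fit gave a log2 fold change of 5.35 ± 1.25 (SE), a value that depends on the prior count, and the gene was past the threshold with all 6 libraries but not with any 1 of them left out. In bulk RNA, a few cells with much of a transcript and many cells with little of it cannot be told apart.

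Ferroportin and Hmox1 are both abundant in macrophages that recycle red cells, so the macrophage markers are given beside them. Of 18 listed markers 15 were in the table, and their summed level was 18.6 to 24.6 CPM in control and 12.5 to 20.5 CPM in KANSL1-deficient libraries, ranges that overlap. Adgre1, Mertk, Fcgr1, Cd5l, Spic and Timd4 were at 0 reads in all control libraries. Spic, a transcription factor of iron-recycling macrophages, had 18, 7 and 11 reads in the KANSL1-deficient libraries, and Adgre1, which encodes F4/80, had 2, 4 and 0. Lyz2, a lysozyme gene, had 0, 28 and 7 reads in control and 43, 40 and 59 in KANSL1-deficient libraries. Other markers went the other way or were mixed. Cd68, a lysosomal protein gene and the most abundant of the list, had 151, 269 and 267 against 201, 119 and 81 reads. Axl, a receptor kinase gene, had 149, 134 and 181 against 25, 57 and 11 reads, and it was the single listed marker past the threshold (log2 fold change -2.23 ± 0.51, SE; edgeR quasi-likelihood test, adjusted p = 0.0241). The part of macrophage RNA in the Slc40a1 and Hmox1 values was not tested. The 11 erythroid markers in the table summed to 6.07 to 10.5 CPM in control and 4.53 to 6.36 CPM in KANSL1-deficient libraries. Of these, 6 were tested, and all 6 had negative log2 fold changes, with a median of -0.96 against -0.02 over all tested genes. None of the 6 was past the threshold.

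**Figure D2:**
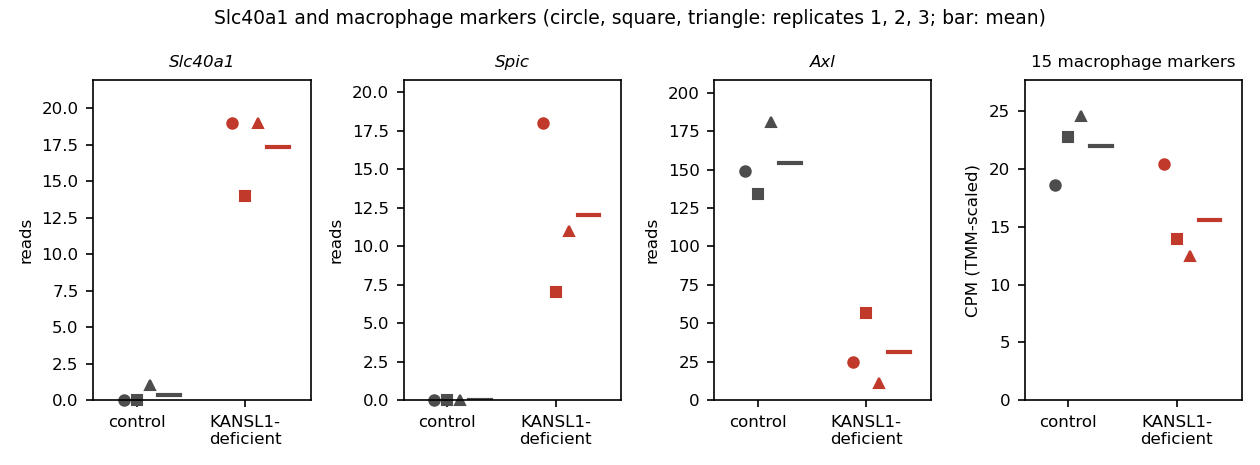
Reads per library of Slc40a1, Spic and Axl, and summed TMM-scaled CPM of the 15 macrophage markers in the table (vertical axes from 0), with each library as a point and the group mean as a bar. Slc40a1 and Spic are at 0 or 1 reads in control libraries, Axl is lower in all KANSL1-deficient libraries, and the marker sum overlaps.

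The ferritin transcripts were by far the most abundant of the 9 and overlapped between the genotypes. Fth1 (ENSMUSG00000024661, chr19:9957962-9962462), the heavy chain with the iron-oxidising site, was read at 1543, 2151 and 1823 CPM in control and at 2477, 2126 and 2019 CPM in KANSL1-deficient libraries. Control replicate 1 was the lowest and KANSL1-deficient replicate 1 the highest library. The log2 fold change was 0.26 ± 0.14 (SE) and did not pass the threshold, and it was 0.14 without control replicate 1. Ftl1 (ENSMUSG00000050708, chr7:45107368-45109308), the light chain that aids mineral growth, was read at 715, 987 and 849 CPM in control and at 1015, 800 and 855 CPM in KANSL1-deficient libraries. Control replicate 1 was again the lowest library, and the groups were interleaved. Its log2 fold change was 0.07 ± 0.14 (SE) with TMM scaling, -0.084 with library totals and -0.058 without control replicate 1, so no direction can be given. Its near-identical processed copy Ftl1-ps1 was listed with 298 to 486 reads per library, and reads of the 2 could be split either way by the counting. An overlapping gene on the other strand, Gm10252, had 0, 1 and 1 reads in control and 15, 17 and 14 in KANSL1-deficient libraries.

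Of the genes of iron entry, Tfrc was higher in every KANSL1-deficient library and Slc11a2 overlapped. Tfrc (ENSMUSG00000022797, chr16:32427738-32451612), which carries the 4 hairpins in its 3′ UTR, was read at 41.0, 59.1 and 50.1 CPM in control and at 80.5, 68.6 and 63.1 CPM in KANSL1-deficient libraries. The lowest KANSL1-deficient library was just above the highest control library. The log2 fold change of 0.50 ± 0.17 (SE) did not pass the threshold with edgeR and did with DESeq2. Slc11a2 (ENSMUSG00000023030, chr15:100285779-100322953), which moves iron from the endosome to the cytosol, was read at 17.2, 23.4 and 28.3 CPM in control and at 29.0, 29.3 and 23.3 CPM in KANSL1-deficient libraries. KANSL1-deficient replicate 3 lay within the control range. Its log2 fold change was 0.24 ± 0.22 (SE), and 0.06 without control replicate 1, the library with the lowest value.

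Both iron regulatory protein transcripts were lower in every KANSL1-deficient library, Aco1 by more than Ireb2. Aco1 (ENSMUSG00000028405, chr4:40143081-40198338), which encodes IRP1, was read at 42.5, 51.4 and 58.8 CPM in control and at 24.0, 29.4 and 25.4 CPM in KANSL1-deficient libraries. A wide gap separated the groups. Control libraries averaged 50.9 ± 8.13 CPM and KANSL1-deficient libraries 26.3 ± 2.81 CPM (SD, n = 3 each), a log2 fold change of -0.95 ± 0.18 (SE) that stayed between -1.08 and -0.84 with any 1 library left out. It was not past the threshold without KANSL1-deficient replicate 1. Ireb2 (ENSMUSG00000032293, chr9:54771073-54819814), which encodes IRP2, was read at 82.6, 59.2 and 69.3 CPM in control and at 58.3, 55.2 and 53.3 CPM in KANSL1-deficient libraries. The highest KANSL1-deficient library was only just below the lowest control library. The log2 fold change of -0.34 ± 0.16 (SE) did not pass the threshold, and it was -0.22 without control replicate 1, the library with the highest value.

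Counted together, all 9 genes passed the filter on low counts, 1 was past the threshold as higher (Slc40a1), 2 as lower (Hmox1, Aco1) and 6 were not, beside 6.76% of all tested genes. Nothing is read from this share, since the genes came from the same comparison. Slc40a1 passed the filter only through the KANSL1-deficient libraries, where it is high, so its place past the threshold is no support. The CPM of 6 of the 9 did not overlap between the groups, as for 28.5% of all tested genes. DESeq2 placed 4 of the 9 under an adjusted p of 0.05 (Hmox1, Hmox2, Tfrc and Aco1) beside 16.1% of the genes it gave an adjusted p (8.6% higher, 7.5% lower), and it gave none for Slc40a1. The authors' deposited table lists the same 4 genes under an adjusted p of 0.05, beside 14.9% of its genes with one, and marks Hmox1 alone of the 9 as significant by a rule it does not state. Its log2 fold changes were -1.30 for Hmox1, 0.52 for Hmox2, 0.50 for Tfrc, -0.95 for Aco1 and 5.71 for Slc40a1. The median log2 fold change of the 9 was 0.24 in the edgeR fit, against -0.02 over all tested genes.

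**Figure D3:**
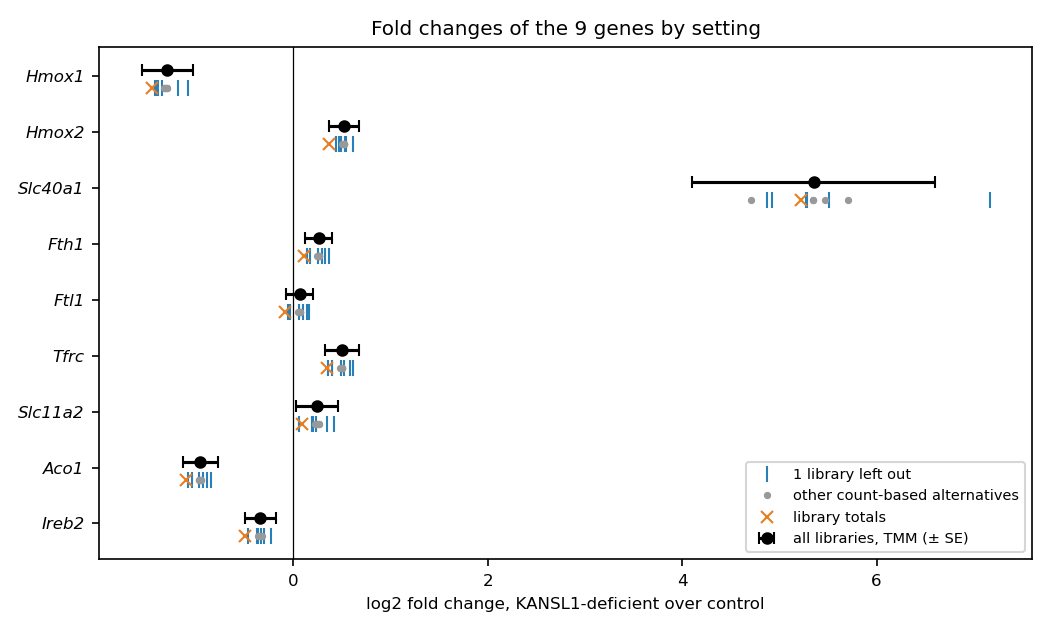
Log2 fold change of each gene, KANSL1-deficient over control (horizontal axis), with all libraries and TMM scaling (black, ± SE), with 1 library left out, with library totals and with the other count-based alternatives. Ftl1 takes both signs, Hmox1, Aco1 and Ireb2 stay below 0, and the other 5 genes stay above 0 under the alternatives drawn.

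Per length, the order of the 9 genes was led by the ferritin chains. Ftl1 stood at 666 ± 95.8 FPKM in control and 629 ± 70.9 FPKM in KANSL1-deficient libraries, and Fth1 at 557 ± 83.1 and 602 ± 53.9 FPKM (SD, n = 3 each). The FPKM ranges of the 2 genes over libraries overlapped, although within each control library Ftl1 was the higher. This order rests on the lengths behind the deposited FPKM, 3469 bases for Fth1 and 1340 for Ftl1. The longest transcript with the hairpin site had 1494 bases for Fth1 and 968 for Ftl1. In CPM Fth1 was above Ftl1 in every library, so which chain has more transcripts is not settled. By mean FPKM Ftl1 and Fth1 ranked 32 and 35 among all 29626 genes. Hmox2 followed far below at 21.7 ± 2.70 FPKM in control and 28.1 ± 0.815 FPKM in KANSL1-deficient libraries. In control cells Hmox1 (12.6 ± 2.04 FPKM) and Aco1 (11.9 ± 1.84) came next and did not differ beyond their spread, nor did Tfrc (8.49 ± 1.40) and Ireb2 (7.82 ± 1.43). In KANSL1-deficient cells Tfrc (10.8 ± 1.14 FPKM) stood above Ireb2 (5.56 ± 0.148), Aco1 (5.54 ± 0.609) and Hmox1 (4.59 ± 1.19). There the range of Aco1 overlapped those of Ireb2 and Hmox1, while every Hmox1 value lay below every Ireb2 value. Slc11a2 was at 3.80 ± 0.898 and 4.06 ± 0.433 FPKM, and Slc40a1 was last.

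Ratios within a library are free of library scaling. They were chosen after the values had been seen and are given as a description. The FPKM of Hmox2 was 1.40, 1.78 and 2.08 times that of Hmox1 in control and 5.40, 5.16 and 8.86 times in KANSL1-deficient libraries. By FPKM the Hmox2 transcript thus outweighed the Hmox1 transcript in every library, and by more in the KANSL1-deficient ones. The fewer Hmox1 reads used for the selection enter this ratio, and its height rests on the lengths behind the FPKM. The ratio of ferritin heavy to light chain, Fth1 over Ftl1, was 0.834, 0.842 and 0.829 in control and 0.943, 1.03 and 0.913 in KANSL1-deficient libraries. Its height rests on the gene lengths named above, which are the same for all libraries. The control values were nearly equal although the levels of both genes differed between those libraries, and all KANSL1-deficient values were above them. Tfrc over Fth1, multiplied by 1000, was 14.9, 15.4 and 15.4 in control and 18.2, 18.1 and 17.5 in KANSL1-deficient libraries, again without overlap and with less relative spread than either gene alone. Ireb2 over Aco1 was 0.921, 0.546 and 0.560 in control and 1.15, 0.890 and 0.995 in KANSL1-deficient libraries, where control replicate 1 lies among the KANSL1-deficient values.

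**Figure D4:**
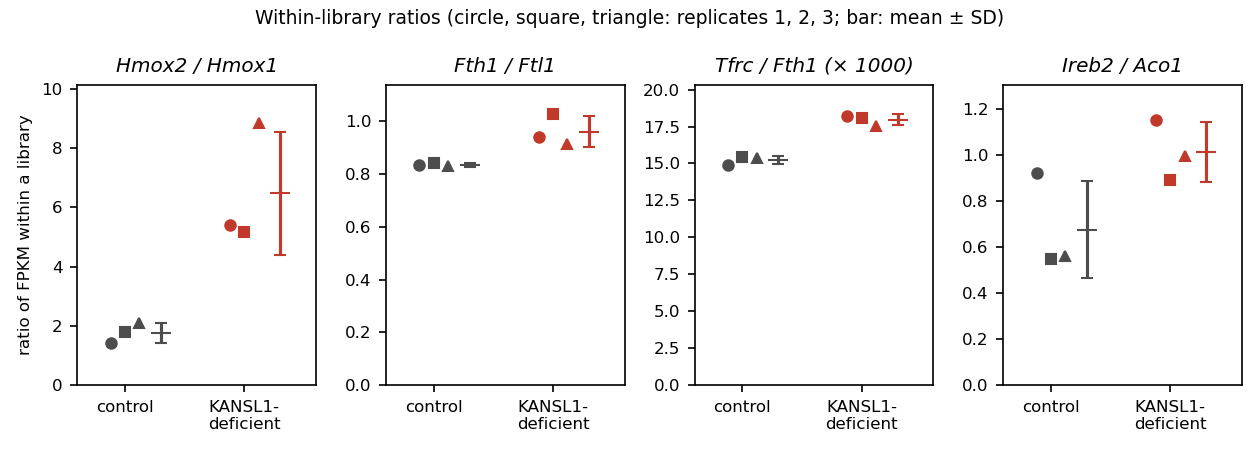
Ratio of FPKM within each library for 4 pairs of genes (vertical axes from 0, the third multiplied by 1000), with each library as a point and the mean ± SD beside it. Hmox2 over Hmox1, Fth1 over Ftl1 and Tfrc over Fth1 are higher in all KANSL1-deficient libraries, and Ireb2 over Aco1 overlaps.

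The other genes of these pathways were taken from 9 lists that leave out the 9 genes above. Of 124 listed genes 103 were tested, 2 rose, 3 fell and 98 did not pass, so that 4.85% passed beside 6.76% of all tested genes. With library totals 1 rose and 7 fell. Their median log2 fold change was -0.10 against -0.02 over all tested genes, and it was -0.06 without control replicate 2. Without control replicate 3, 3 genes passed, and without control replicate 2, or without any 1 of the KANSL1-deficient libraries, 2 genes passed. DESeq2 called 14 of the 96 to which it gave an adjusted p (14.6%), beside 16.1% of all such genes. The limma-voom fit called 5 of the 103, and 1226 of all 15353 tested genes. These values over all genes belong beside the counts of each list below. The share of all tested genes with an unadjusted p under 0.05 is not given, so nothing is read from such counts. Among 14 heme synthesis genes 1 fell (3 had an unadjusted p under 0.05, and DESeq2 called 2). Of the 14, 12 had negative values, as did 51.8% of all tested genes. The median was -0.17, but -0.28 without control replicate 1 and -0.11 without control replicate 2. The gene that fell was Fech, ferrochelatase, which inserts iron into the porphyrin ring as the last step of heme synthesis. It was read at 62.4, 65.7 and 57.8 CPM in control and at 30.9, 34.4 and 29.1 CPM in KANSL1-deficient libraries. The log2 fold change was -0.98 ± 0.16 (SE; adjusted p = 0.00620 in the edgeR quasi-likelihood test), lower in 3 of 3 libraries and past the threshold with each library left out in turn. Alas1, which encodes the rate-limiting first enzyme outside red cells, stood at -0.23 ± 0.23 (SE) and did not pass. In the list of heme degradation and transport none of 7 tested genes passed in the main edgeR fit (1 had an unadjusted p under 0.05, DESeq2 called 1 and limma-voom none). The median was -0.09, with 3 positive and 4 negative values. The gene called by DESeq2 was Abcg2, lower at -0.73 ± 0.23 (SE), which also passed with edgeR on library totals. The most abundant genes of the list were Pgrmc1, a heme-binding membrane protein gene, and Slc48a1, a heme transporter gene. Their log2 fold changes were 0.21 ± 0.15 and 0.22 ± 0.17 (SE), and 0.06 for each with library totals.

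Iron uptake, storage, export and sensing had no gene past the threshold in the main edgeR fit. With at least 5 CPM in 3 libraries 2 iron sensing genes were higher, where 1546 genes passed in all. Without a filter 1 iron uptake gene was lower, where 1729 genes passed in all. In iron uptake and reduction 10 genes were tested (2 with an unadjusted p under 0.05, 1 called by DESeq2, none by limma-voom), led in abundance by Snx3 (0.40 ± 0.14), a sorting nexin that returns the transferrin receptor to the surface, and the metal transporter gene Slc39a14 (-0.42 ± 0.22). In storage, release and chaperones 6 were tested (2 with an unadjusted p under 0.05, none called by DESeq2 or limma-voom). Its most abundant genes were Pcbp1, an iron chaperone for ferritin, with a log2 fold change of 0.32 ± 0.13 (SE), and Ncoa4, the receptor that delivers ferritin to autophagy, with 0.00 ± 0.14 (-0.15 with library totals). Of the export genes only Cp, which encodes the ferroxidase ceruloplasmin, was tested (-1.34 ± 0.88, SE). It had 3 to 68 reads per library, and the value was -0.38 without control replicate 3, the library with 68 reads, and -0.88 without KANSL1-deficient replicate 2. Hamp, which encodes the ferroportin-binding hormone hepcidin, had 0 to 10 reads. In iron sensing 5 were tested (2 with an unadjusted p under 0.05, 2 called by DESeq2, none by limma-voom). Skp1, a subunit of the ligase that degrades IRP2, was at 0.21 ± 0.13 (0.06 with library totals) and Hif1a at 0.44 ± 0.13. Of the 5, 3 had positive and 2 negative values, Fbxl5 among the negative ones (-0.23 ± 0.16).

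Among 27 genes of iron-sulfur cluster assembly 21 had negative values and 6 positive, with a median of -0.31 on the log2 scale against -0.02 over all tested genes, and the median was -0.46 with library totals, where that of all genes was -0.17. None of them passed in the main edgeR fit (5 had an unadjusted p under 0.05), DESeq2 called 2 and limma-voom none. In other edgeR fits 1 fell with library totals, 1 with at least 5 CPM in 3 libraries, 1 without control replicate 1 and 2 without a filter. Over all genes 1326, 1546, 811 and 1729 passed in these settings. Nubp2, of the cytosolic assembly machinery and the most abundant of them, had a value of -0.21 ± 0.16 (SE).

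In the list of NRF2 and BACH1, the activator and the heme-sensing repressor of Hmox1, 22 genes were tested. Of these, 1 rose and 1 fell, beside 3.85% higher and 2.91% lower of all tested genes, and the median was 0.10. That median has no firm direction, since it was -0.04 with library totals, -0.03 without control replicate 1 and 0.01 without KANSL1-deficient replicate 3. Nfe2l2, which encodes NRF2, was read at 24.8, 29.2 and 33.1 CPM in control and at 52.1, 47.6 and 53.6 CPM in KANSL1-deficient libraries. It was higher in 3 of 3 libraries, by 0.81 ± 0.17 (SE) on the log2 scale (adjusted p = 0.0176 in the edgeR quasi-likelihood test), and was not past the threshold without control replicate 2 or without any 1 KANSL1-deficient library (0.70 to 0.91 over the 6 fits). Bach1, which encodes the repressor, stood at 0.27 ± 0.14 (SE) and did not pass. The glutathione transferase gene Gstm1 fell, from 19.5, 20.0 and 18.4 CPM to 8.51, 5.66 and 6.06 CPM (-1.52 ± 0.25, SE; adjusted p = 0.00644 in the edgeR quasi-likelihood test), also with each library left out. Gstm1 belongs to a family of similar genes that may share reads. Of other known NRF2 targets, Slc7a11 (0.22 ± 0.13), Gclm (0.11 ± 0.41) and Txnrd1 (0.13 ± 0.18) did not pass, and the last 2 changed sign with library totals (-0.03 and -0.01). Others of the list were negative and did not pass: Osgin1 (-1.50 ± 0.72), Taldo1 (-0.29 ± 0.13), Gclc (-0.16 ± 0.24) and Maff (-1.22 ± 0.43). Of the 22 tested genes 14 had positive and 8 negative values. DESeq2 called 3 of them, Maff included, beside 16.1% of all genes to which it gave an adjusted p, and limma-voom called 2. In the ferroptosis defence list 11 genes were tested, with a median of 0.07 (-0.08 with library totals, and 0.02 to 0.14 with 1 library left out). Of the 11, 1 rose and 1 fell, and nothing is read from a share of so few genes. Cat, which encodes catalase, rose (0.47 ± 0.11, SE; edgeR quasi-likelihood test, adjusted p = 0.0273), and Dhodh, a mitochondrial enzyme gene of pyrimidine synthesis, fell (-0.68 ± 0.18; adjusted p = 0.0466). Cat was not past the threshold with any 1 library left out or with library totals, and of the 6 fits with 1 library left out Dhodh passed only in that without control replicate 1.

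**Figure D5:**
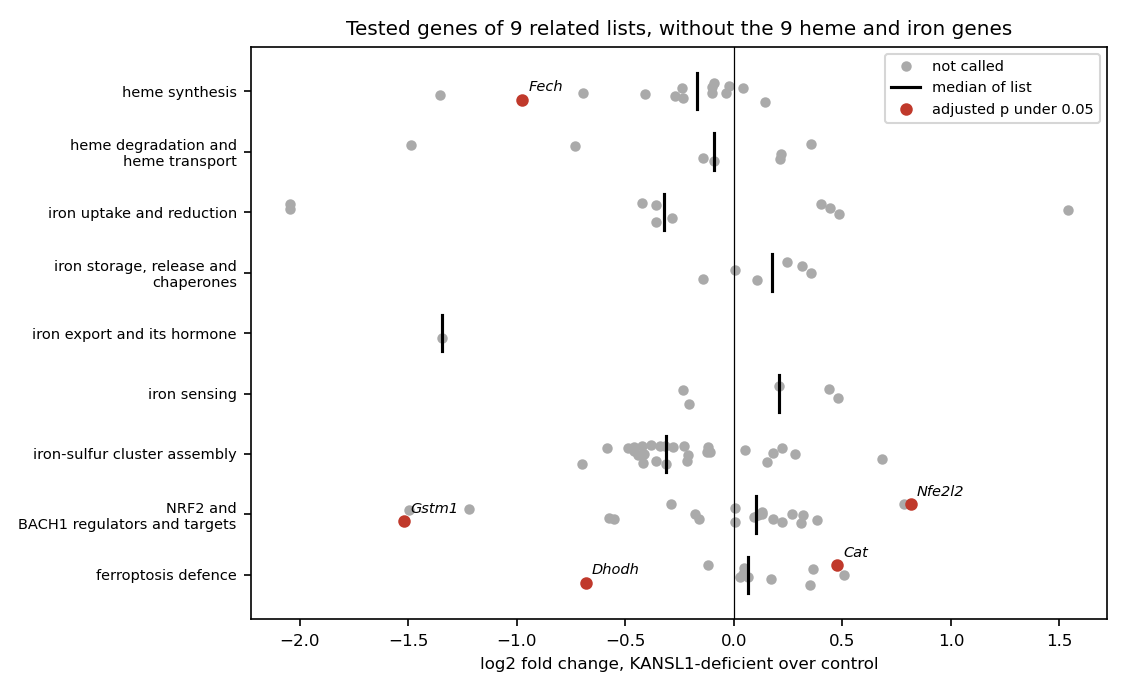
Log2 fold change, KANSL1-deficient over control (horizontal axis), of the 103 tested genes of 9 related lists (rows), with the median of each list as a bar and the 5 genes past the threshold in red. Fech, Gstm1 and Dhodh fell, Nfe2l2 and Cat rose, and most iron-sulfur assembly genes lie left of 0.

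The other genes with a matching hairpin, leaving out the 4 described above, had 13 tested members with a median log2 fold change of -0.03 against -0.02 over all tested genes. Of these 13, 1 passed the threshold, Lims1 (0.54 ± 0.13, SE; edgeR quasi-likelihood test, adjusted p = 0.0326), a share of 7.69% that lies near the 6.76% of all tested genes. Alas2, the erythroid enzyme that starts heme synthesis, has the site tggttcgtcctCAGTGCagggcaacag in its 5′ UTR (chrX:150547459-150547485, GRCm38, plus strand) and had a log2 fold change of -0.03 ± 0.50, with 27 to 55 reads per library.

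The genes whose log2 CPM followed that of Hmox1 most closely over the 6 libraries, among genes of at least 5 CPM on average, were Tmem156 (Pearson's r = 0.996), Nmrk1, which encodes a nicotinamide riboside kinase (0.996), Gm37747 (0.992), Ccdc25 (0.992) and Dhx29, which encodes a helicase of translation initiation (0.991). For Slc40a1 they included Inf2, a formin gene (0.996), Irf8, a transcription factor gene of myeloid and B cells (0.996), Pcsk1, a prohormone convertase gene (0.993), and Mir181a-1hg (0.992). The points share the 2 genotypes and the library depths, so these values describe likeness in this comparison only.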

How the data were processed

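RNA of 3 control and 3 KANSL1-deficient mice was measured by poly(A)-selected RNA-seq. The build GRCm39 and the tools STAR, featureCounts and DESeq2, without versions, are named per the submitters' processing notes. The authors deposited whole-number read counts for 29626 genes and, in a second table, FPKM for the same genes. Per the file headers, their comparison gives a mean normalized signal, a ratio (fold change), its log2, a p-value and its adjusted p-value. Groups and replicate numbers came from the labels, and no library was left out. Libraries of one group differed by more than counting noise, at 21.8 to 41.0 times the chi-square expected per gene.

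Counts were fitted with edgeR 4.0.16 in R 4.3.3 (quasi-likelihood, TMM, minimum count 10 and minimum total 15 by group, robust dispersions, Benjamini-Hochberg at 0.05). The fit was checked on simulated data. The SE is the log2 fold change divided by the square root of F. Alternatives were other scalings and filters, DESeq2 1.42.0, limma 3.58.1 (voom, and log2 FPKM plus 1 or 0.1), a replicate block and each library left out. The genes and lists were chosen with earlier results of these data known. Named genes were the 9 genes, Kansl1, up to 3 called genes per list by smallest p or else the 2 most abundant, the 5 genes most like Hmox1 and Slc40a1, and the macrophage markers at 0 or most abundant. Others (Alas1, Abcg2, Fbxl5, Bach1, Slc7a11, Gclm, Txnrd1, Osgin1, Taldo1, Gclc, Maff, Alas2 and overlapping genes) were added after their values were seen. GENCODE M21 gave the hairpin sites. Some genes that this rule picks are not reported here.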

Additional observations from a re-analysis of the deposited data

How the results depend on the processing

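With all libraries 1038 genes passed the threshold. The count was 1729 without a filter, 2040 with DESeq2, 406 with replicate number as a block, and 283 to 811 with 1 library left out. For the listed pathway genes outside the 9, 5 passed, against 8 with library totals, 9 without a filter, 10 with at least 5 CPM in 3 libraries, 14 with DESeq2, 2 with the replicate block and 2 to 5 with 1 library left out. The labels give the groups the same replicate numbers but do not say that they mark a litter or day. Same-numbered libraries did not deviate together (r of -0.05, -0.02 and -0.10 for numbers 1 to 3), and differently numbered ones had r of -0.03 to 0.07. Such values show no pairing but cannot exclude one, so the main fit has no block. With the block Slc40a1, Nfe2l2, Cat and Dhodh were not past the threshold. Ftl1 changed sign with library totals (-0.084), log2 FPKM plus 1 (-0.0795) or plus 0.1 (-0.0796), without control replicate 1 (-0.0584) and without KANSL1-deficient replicate 1 (-0.0378), and ranged from -0.0584 to 0.165 with 1 library left out. Hmox1 and Aco1 kept their sign and stayed past the threshold in the 9 alternatives that keep all libraries. On log2 FPKM the difference of Slc40a1 was 0.12 with a pseudocount of 1 and 0.89 with 0.1, which by construction shrinks so scarce a gene, and the filter of 5 CPM removed it. At these depths a gene of under 20 reads per library, such as Slc40a1, is known only within a wide counting interval.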

Other observations

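The pattern of Slc40a1, at most 1 read in the control libraries together and at least 14 in each KANSL1-deficient library, was met by 4 of the 29626 listed genes: Slc40a1, Tmem30b, Gm33707 and Gm38326. Tmem30b, which encodes a subunit of lipid flippases, had 0, 0 and 1 reads in control and 24, 23 and 43 in KANSL1-deficient libraries. The reverse pattern was also met by 4 genes: Sgce, Zfp947, Amd-ps7 and Gm34632. Sgce, a sarcoglycan gene, had 30, 18 and 29 reads in control and 0, 0 and 1 in KANSL1-deficient libraries. These limits were set after the reads of Slc40a1 had been seen.

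The nearest genes to Hmox1, Slc40a1 and Aco1 were also read. Mcm5, a replicative helicase gene 8980 bases from Hmox1 on the same strand, was higher by 0.92 ± 0.16 (SE) on the log2 scale (adjusted p = 0.00768 in the edgeR quasi-likelihood test). Next to Slc40a1, Gm18303 had 17, 0 and 0 reads in control and 0 in each KANSL1-deficient library, and Gm9496 had 0 in each control and 1, 5 and 0 in KANSL1-deficient libraries. Beside Aco1, the RNA sensor gene Rigi stood at 0.65 ± 0.20 (SE) on the log2 scale and did not pass the threshold.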
